A study of Mus musculus with 19 samples.

Results

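The genes described here are *Atf4*, *Ddit3*, *Trib3*, *Chac1*, *Asns*, *Phgdh*, *Psat1*, *Psph*, *Shmt2* and *Mthfd2*, 10 of the 54352 genes counted in 19 RNA-seq libraries from mouse bone marrow progenitors. They were chosen by function, as genes of the integrated stress response, of serine synthesis and of mitochondrial one-carbon metabolism, from a list selected with earlier results of the same libraries in view, and the choice states no threshold on any value. Their adjusted p-values therefore place them among all genes tested and are no independent support. The sorted populations were LSK cells, a compartment of stem and multipotent cells that the labels call KLS, and common myeloid progenitors (CMPs). The question was what changes in these cells when the lncRNA *Spehd* (lncRNA12928) is depleted.

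Every library came from C57BL6 cells in a transplanted mouse. Purified hematopoietic stem cells were transduced with a doxycycline-inducible shRNA vector and given to sublethally irradiated adult CD45.1 recipients of both sexes that carried the cKit-w41 allele, so host hematopoiesis was not fully ablated. After 10 weeks of reconstitution the mice ate doxycycline food for 6 days, and cells positive for zsGreen, the reporter of shRNA expression, were sorted. There were 9 CMP libraries, of which 3 carried sh10 (labelled 12928-10), 2 carried sh20 (labelled 12928-20) and 4 a control shRNA against *Renilla* luciferase. The 10 LSK libraries comprised 3, 3 and 4 of the same shRNAs. The control cells thus also carried the vector, an active hairpin, doxycycline and the transplant history. The guide strands are shown because the labels tell the *Spehd* groups apart by hairpin only, with the seed, bases 2 to 8, in capitals.
sh10: tACAAAGTcagcttttcctctc
sh20: tATGCTATgacaacccagggca
The seeds of the 2 guides differ. No counted gene is named *Spehd*, so the depletion itself was not checked in these libraries. Replicates are lettered, and nothing states that the letters are separate animals, so p-values measure the spread between these libraries, which may in part be technical.

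Libraries held from 3647318 to 5965155 counts on genes, and all 5 CMP libraries with a *Spehd* shRNA were deeper (4918631 to 5965155) than all 4 with *Renilla* shRNA (3857980 to 4314959). Some libraries stood apart from others of their group. LSK sh10 B differed from LSK sh10 A and C by a chi-square of 37.7 and 45.2 per gene, against 5.24 between A and C, and the CMP sh20 pair differed by 27.8, against 5.64 to 8.07 within CMP *Renilla*. The LSK sh20 pairs differed by 13.9 to 18.3, against 5.47 to 6.87 within LSK *Renilla*. All 5 sh20 libraries had fewer genes detected (17174 to 18066) than every other library (18552 to 20678), although both CMP sh20 libraries were the deepest of the 19, and the part of this in the sh20 results was not tested. The markers of the 2 populations separated as follows with *Renilla* shRNA, where 19.8% of all genes were called: 8 of 11 stem and multipotent markers were lower in CMPs and 9 of 9 erythroid and megakaryocyte markers were higher, but 8 of 9 granulocyte and monocyte progenitor markers were lower in CMPs. The CMP libraries therefore went against the label for that marker list. In bulk samples fewer cells of a type and less RNA per cell cannot be told apart.

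ATF4 is a transcription factor whose mRNA is translated when the initiation factor eIF2 is phosphorylated, under amino acid shortage, protein misfolding, heme shortage or mitochondrial stress. It dimerizes with C/EBP and other bZIP proteins and induces CHOP (the product of *Ddit3*), TRIB3 and CHAC1, the asparagine synthetase ASNS and the enzymes that make serine and pass its carbon to folate. Serine synthesis runs through PHGDH, PSAT1 and PSPH, and mitochondrial SHMT2 and MTHFD2 then move the one-carbon unit of serine through the folate pool for nucleotide and formate production. ATF4 activity is set largely by translation, which counts of mRNA do not measure.

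The ATF4 dimer with C/EBP binds a composite element, and its core TGATGNAA was searched on both strands of the RefSeq promoters of the 10 genes, from 250 bases before to 50 after each start on GRCm38.p6 (11 promoters, since *Psat1* has 2). The core was found in 3 of the 10 genes, *Chac1*, *Trib3* and *Asns*, against 4.51% of 27025 genes and 3.97% of 32851 promoters of that length. The windows around these matches are shown because 2 of the 3 genes gave the largest differences between populations, with the matched bases in capitals and each read on the strand of its gene.
Chac1: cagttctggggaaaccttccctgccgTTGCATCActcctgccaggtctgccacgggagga
Trib3: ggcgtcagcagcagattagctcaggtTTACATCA
Asns: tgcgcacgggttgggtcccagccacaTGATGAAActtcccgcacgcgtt
The windows lie at chr2:119351023-119351082 on the plus strand, chr2:152344039-152344072 on the minus strand and chr6:7693210-7693258 on the minus strand. The match begins 193 bases before the start of *Chac1*, 23 bases before that of *Asns* and at base 15 after that of *Trib3*, and in *Chac1* and *Trib3* it is on the opposite strand. The stricter form TGATGCAA was in the *Chac1* promoter alone of the 10 genes, and in 0.895% of all promoters. These are matches of letters, not measured binding sites.

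Levels between genes were compared as CPM (gene counts relative to the TMM-scaled library size) per kilobase of exon in GENCODE vM21. In control LSK cells the order was *Shmt2* (84.0 ± 3.90 CPM per kilobase, SD, n = 4), *Atf4* (41.8 ± 7.47), *Psat1* (41.4 ± 0.63), *Phgdh* (28.6 ± 1.97), *Psph* (16.0 ± 0.93), *Ddit3* (14.6 ± 0.89), *Asns* (11.8 ± 1.23), *Mthfd2* (10.6 ± 0.80), *Trib3* (5.72 ± 1.44) and *Chac1* (0.31 ± 0.45). The neighbours *Atf4* and *Psat1*, *Psph* and *Ddit3*, and *Asns* and *Mthfd2* lay within their combined SDs. In control CMPs *Shmt2* again led (94.6 ± 2.26 CPM per kilobase, SD, n = 4), but *Asns* came next at 71.0 ± 9.52, followed by *Atf4* (56.9 ± 3.99), *Psat1* (43.6 ± 2.79), *Phgdh* (28.4 ± 2.21), *Ddit3* (21.6 ± 3.69), *Mthfd2* (17.7 ± 1.03), *Psph* (16.1 ± 1.48), *Trib3* (2.18 ± 1.89) and *Chac1* (0.34 ± 0.43). Here *Ddit3* and *Mthfd2*, *Mthfd2* and *Psph*, and *Trib3* and *Chac1* lay within their combined SDs.

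**Figure D1:**
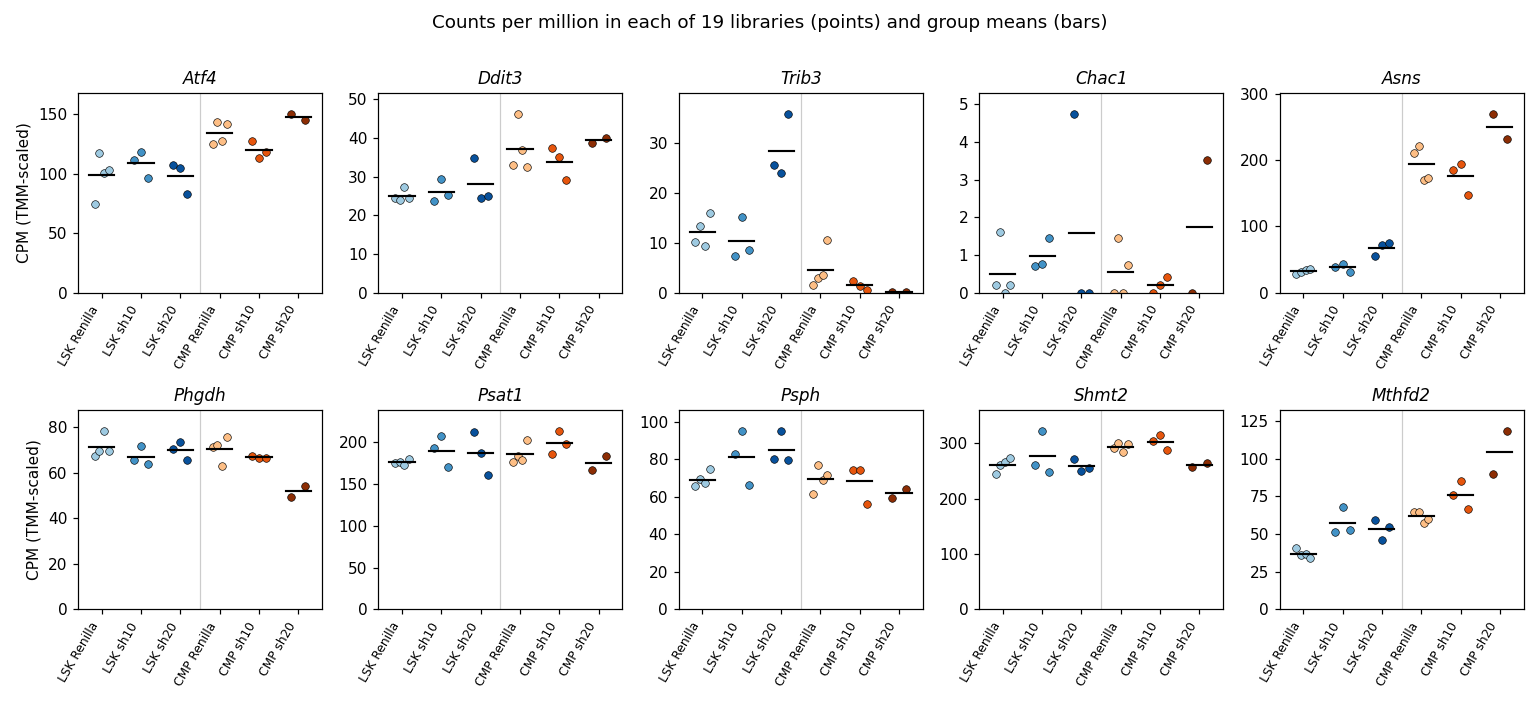
CPM (TMM-scaled, linear axis from 0) of each of the 10 genes in the 19 libraries. Each point is 1 library and each black bar a group mean (n = 2 to 4); *Asns* is higher in every CMP library than in every LSK library, *Mthfd2* is higher with both *Spehd* shRNAs, and the sh20 mean of *Trib3* is the highest of the LSK groups and the lowest of the CMP groups.

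Between control LSK cells and control CMPs, 5 of the 10 genes passed the threshold (edgeR quasi-likelihood test, Benjamini-Hochberg adjusted p under 0.05 over 15066 genes), where 19.8% of all genes tested were called. *Asns*, *Mthfd2*, *Ddit3* and *Atf4* were higher in CMPs and *Trib3* was lower, while the 3 serine synthesis genes lay within 0.08 of 0 on the log2 scale. With sh10, 2 genes were called (*Asns* and *Trib3*, background 16.1%), and with sh20, 5 were called (*Asns*, *Mthfd2* and *Atf4* higher, *Trib3* and *Phgdh* lower, background 14.6%). The *Phgdh* call (-0.43, SE 0.13, edgeR adjusted p = 0.0373) was lost without any 1 of the 5 sh20 libraries (adjusted p 0.0647 to 0.226), with the replicate letters as a block (0.0706), with no filter on low counts (0.331) and with a covariate for library total (0.122). In a plain comparison of ranges, *Asns* was the only one of the 10 genes whose 9 CMP libraries did not overlap its 10 LSK libraries, as 6.25% of all genes did. For single groups of libraries set against each other below, the share of all genes without overlap was not counted.

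*Asns* (ENSMUSG00000029752.12, chr6:7675169-7693254, minus strand) encodes the enzyme that makes asparagine from aspartate and glutamine. Its level was 27.9, 31.3, 34.6 and 35.2 CPM in the control LSK libraries and 211, 222, 171 and 173 CPM in the control CMP libraries. The lowest CMP library of any shRNA (147 CPM, sh10) was well above the highest LSK library (75.1 CPM, sh20). The fitted difference was 2.59 on the log2 scale (SE 0.15), a 6.02-fold higher level in CMPs with edgeR adjusted p = 1.98e-08, which ranked second by p among 15066 genes. It was 2.20 (SE 0.17, adjusted p = 4.46e-07) with sh10 and 1.90 (SE 0.18, adjusted p = 4.67e-06) with sh20, and it was past the threshold in each alternative run and without each single library of the contrast.

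*Trib3* (ENSMUSG00000032715.9, chr2:152337422-152344032, minus strand) encodes a pseudokinase that ATF4 and CHOP induce and that restrains both AKT and ATF4. It ran the other way. Control LSK libraries held 48, 66, 34 and 74 counts and control CMP libraries 6, 12, 15 and 43, or 9.27 to 16.0 CPM against 1.58 to 10.6 CPM. The ranges overlapped through CMP *Renilla* D alone, whose 10.6 CPM lay above 2 control LSK libraries. The fitted difference was -1.39 (SE 0.47, edgeR adjusted p = 0.0450), and the call was lost without any 1 of 7 of the 8 control libraries (adjusted p 0.0520 to 0.131) and stood without CMP *Renilla* D, at -2.18 with adjusted p = 0.00234. It was also lost with total counts as a covariate (adjusted p = 0.0808). With sh10 it was -2.81 (SE 0.59, adjusted p = 0.00340).

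With sh20 the summed count of *Trib3* was 2 in the pair of CMP libraries and 434 in the 3 LSK libraries, a ratio of CMP to LSK of 0.0060 after scaling, with an exact 95% interval from counting of 0.00073 to 0.0219. Such intervals cover counting error only. The fitted value of -7.16 (SE 0.91, edgeR adjusted p = 7.06e-05) rests on 1 count in each CMP library and depends on the prior count of the fit. The CMP sh20 and LSK sh20 libraries did not overlap.

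*Mthfd2* (ENSMUSG00000005667.8, chr6:83305691-83325908, minus strand) encodes the mitochondrial methylene-tetrahydrofolate dehydrogenase and cyclohydrolase, an enzyme of growing and embryonic cells. It measured 40.8, 36.4, 36.6 and 34.1 CPM in control LSK cells and 64.8, 64.8, 57.5 and 60.1 CPM in control CMPs, with no overlap. The difference was 0.74 (SE 0.14, edgeR adjusted p = 0.00141) with *Renilla* shRNA and 0.96 (SE 0.17, adjusted p = 0.00126) with sh20. With sh10 it was 0.40 (SE 0.16, adjusted p = 0.0922), and 0.57 (adjusted p = 0.0203) without LSK sh10 B, the library that stood apart.

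*Ddit3* (ENSMUSG00000025408.15, chr10:127290774-127296288, plus strand) encodes CHOP, a bZIP factor linked to cell death in prolonged stress. Its control levels were 24.5, 23.9, 27.3 and 24.4 CPM in LSK cells and 32.9, 46.1, 36.9 and 32.4 CPM in CMPs, again with no overlap. The difference of 0.57 (SE 0.17, edgeR adjusted p = 0.0231) was no longer called without any 1 of CMP *Renilla* B (0.46) and LSK *Renilla* A, B and D (adjusted p 0.0557 to 0.104), or with no filter on low counts (0.269). The annotation lists 2 genes under this symbol and places *Mars* and *Gm4189* on the opposite strand at its ends, and whether these libraries kept the strand is not stated, so reads there could be split between genes. The same holds where *Psph*, *Shmt2* and *Psat1* overlap *Cct6a*, *Ndufa4l2* and the pseudogene *Gm3329* on the opposite strand, and *Gm43890* overlaps *Mthfd2* on its own strand.

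*Atf4* itself (ENSMUSG00000042406.8, chr15:80255184-80257541, plus strand) differed less. Control LSK libraries measured 74.6, 117, 101 and 103 CPM and control CMP libraries 125, 143, 128 and 141 CPM, all 4 above the LSK range. The difference was 0.44 (SE 0.12, edgeR adjusted p = 0.0186) and lost its call without LSK *Renilla* A, the lowest library (0.33, adjusted p = 0.0593), without CMP *Renilla* B (adjusted p = 0.0606) or with no filter on low counts (adjusted p = 0.0575). With sh20 it was 0.59 (SE 0.16, adjusted p = 0.0200), a call lost without CMP sh20 B (adjusted p = 0.0870) or LSK sh20 C (adjusted p = 0.0728). It was 0.14 (SE 0.14, adjusted p = 0.559) with sh10, where LSK sh10 B (118 CPM) lay within the CMP range of 113 to 127 CPM.

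**Figure D2:**
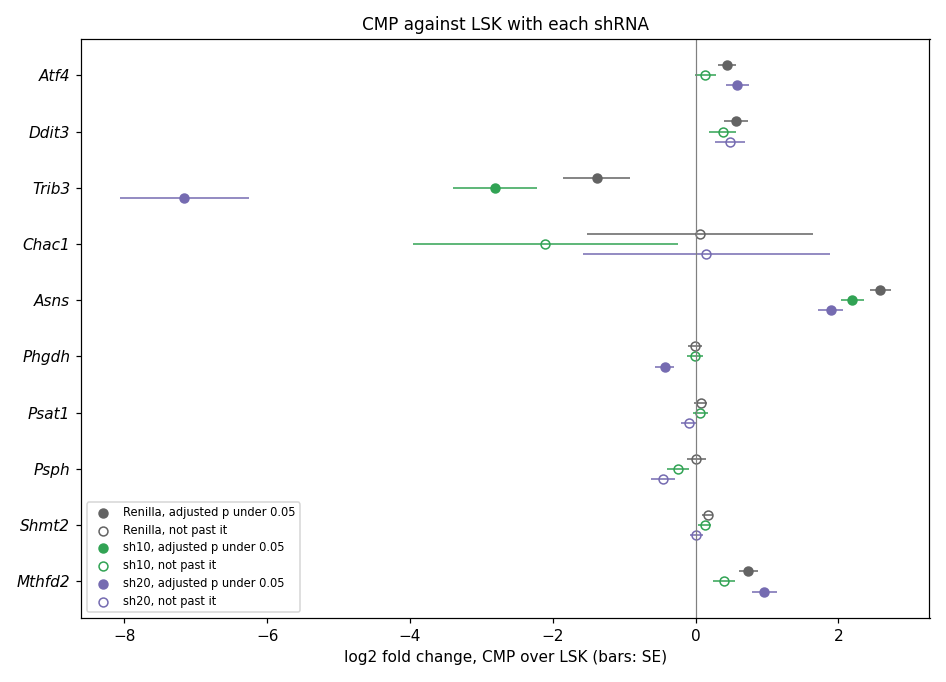
Log2 fold change of CMP over LSK for the 10 genes with each shRNA, from the edgeR fit of all 19 libraries (bars are SE; filled symbols have an adjusted p under 0.05). *Asns* lies from 1.90 to 2.59 with every shRNA and *Trib3* from -1.39 to -7.16, while *Psat1* lies near 0; the *Trib3* and *Chac1* values rest on low counts.

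The serine synthesis genes had close values in the control populations. *Phgdh* (ENSMUSG00000053398.11, chr3:98313170-98339990, minus strand), the enzyme that commits 3-phosphoglycerate to serine, measured 67.2, 69.5, 78.3 and 69.5 CPM in control LSK cells and 71.4, 72.4, 62.9 and 75.8 CPM in control CMPs. The ranges overlapped throughout, and the difference was -0.01 (SE 0.10). *Psat1* (ENSMUSG00000024640.9, chr19:15904678-15947337, minus strand), the transaminase of the next step, ranged from 161 to 213 CPM over all 19 libraries.

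*Psph* (ENSMUSG00000029446.14, chr5:129765558-129787449, minus strand), the phosphatase that releases serine, ranged from 56.2 to 95.0 CPM over the 19 libraries, with a difference between control populations of 0.01 (SE 0.13). It was -0.25 (SE 0.15) with sh10 and -0.46 (SE 0.17, edgeR adjusted p = 0.0831) with sh20. *Shmt2* (ENSMUSG00000025403.5, chr10:127517123-127522444, minus strand), which splits serine into glycine and a folate-bound carbon in mitochondria, measured 244, 261, 266 and 273 CPM in control LSK cells and 292, 300, 285 and 300 CPM in control CMPs. All 4 CMP libraries were above all 4 LSK libraries, by 0.17 (SE 0.07), which did not pass the adjustment (edgeR adjusted p = 0.118). *Chac1* (ENSMUSG00000027313.3, chr2:119351229-119354381, plus strand), a glutathione-degrading enzyme, had 0 to 8 counts in 17 of the 19 libraries and 20 and 24 counts in CMP sh20 C and LSK sh20 A. Those 2 libraries alone carried it past the filter on low counts in the fit of all 19, and it was not tested within either population.

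Within CMPs the pooled *Spehd* shRNAs against *Renilla* called 0 of 9 genes tested (edgeR; 2 had an unadjusted p under 0.05, and DESeq2 called 1, *Mthfd2*), where edgeR called 0.116% of all genes and DESeq2 9.39% of those it gave an adjusted p. In LSK cells the same comparison also called 0 of 9 (edgeR; 2 with an unadjusted p under 0.05, and 0 by DESeq2), as 0% of all genes were by either tool. The ranges of the *Spehd* and *Renilla* libraries did not overlap for *Mthfd2* in either population. That held for 1 of the 9 genes tested in CMPs, where 9.25% of all genes did not overlap, and for 1 of 9 in LSK cells, where 0.930% did not. *Trib3* was at -2.30 in CMPs (SE 0.81, edgeR adjusted p = 0.186). It passed with the shRNAs as separate groups (-3.10, adjusted p = 0.0447) and in the fit of all 19 libraries (-3.11, adjusted p = 0.0124). It did not pass in the other 4 alternatives that kept every library and gave it an adjusted p, nor in the 8 fits without 1 library that did (adjusted p 0.164 to 0.555), and was at -1.51 without CMP *Renilla* D. The other 7 genes lay from -0.21 (*Phgdh*) to 0.09 (*Asns*) in CMPs. In LSK cells *Asns* was at 0.70 (SE 0.24), *Trib3* at 0.65 (SE 0.42) and *Psph* at 0.26 (SE 0.13), and the other 5 genes beside *Mthfd2* lay from -0.06 to 0.11.

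*Mthfd2* was 75.9, 85.0 and 66.2 CPM with sh10 and 90.0 and 118 CPM with sh20 in CMPs, all above the 57.5 to 64.8 CPM of the *Renilla* libraries. In LSK cells it was 51.3, 68.1 and 52.6 CPM with sh10 and 59.2, 46.2 and 54.6 CPM with sh20, all above the 34.1 to 40.8 CPM of the controls. The pooled difference was 0.50 (SE 0.16, edgeR adjusted p = 0.156) in CMPs and 0.58 (SE 0.15) in LSK cells, where its unadjusted p ranked 5 of 13441 genes but the adjusted p was 0.998. In CMPs it passed with DESeq2 (0.51, adjusted p = 0.0443), with the shRNAs as separate groups (0.53, adjusted p = 0.0398) and in the fit of all 19 libraries (0.52, adjusted p = 0.0449). It did not pass with the replicate block (0.47, adjusted p = 0.579), with total counts as a covariate (0.60, adjusted p = 0.708) or without any 1 of the 9 libraries (adjusted p 0.147 to 0.353). The difference between the populations in this effect was -0.06 (SE 0.18, adjusted p = 0.929). Every CMP *Spehd* library was also deeper than every CMP control, and depth and shRNA were not separated by that comparison.

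Each shRNA was also set against *Renilla* on its own; both comparisons in a population share its control libraries. With sh10, 0 of 9 genes were called in CMPs (edgeR; 0 with an unadjusted p under 0.05, and 0 by DESeq2; background 1.97% by edgeR and 9.26% by DESeq2) and 0 of 9 in LSK cells (edgeR; 1 with an unadjusted p under 0.05, *Mthfd2* at 0.64, and 0 by DESeq2; background 0% by edgeR and 0.00986% by DESeq2). With sh20, 2 of 9 were called in CMPs, *Mthfd2* higher and *Trib3* lower, where 6.17% of all genes were called. DESeq2 called 3, *Phgdh* lower in addition, with a background of 11%. With sh20 in LSK cells 0 of 9 were called by edgeR, 3 had an unadjusted p under 0.05 and DESeq2 called 2, *Asns* and *Trib3* (background 0% by edgeR and 1.16% by DESeq2). With sh10 *Trib3* was at -1.66 (SE 0.76) in CMPs and -0.22 (SE 0.33) in LSK cells, and *Atf4* at -0.17 (SE 0.08) and 0.15 (SE 0.17). *Ddit3*, *Psat1* and *Psph* lay from -0.16 to 0.27 in all 4 comparisons.

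**Figure D3:**
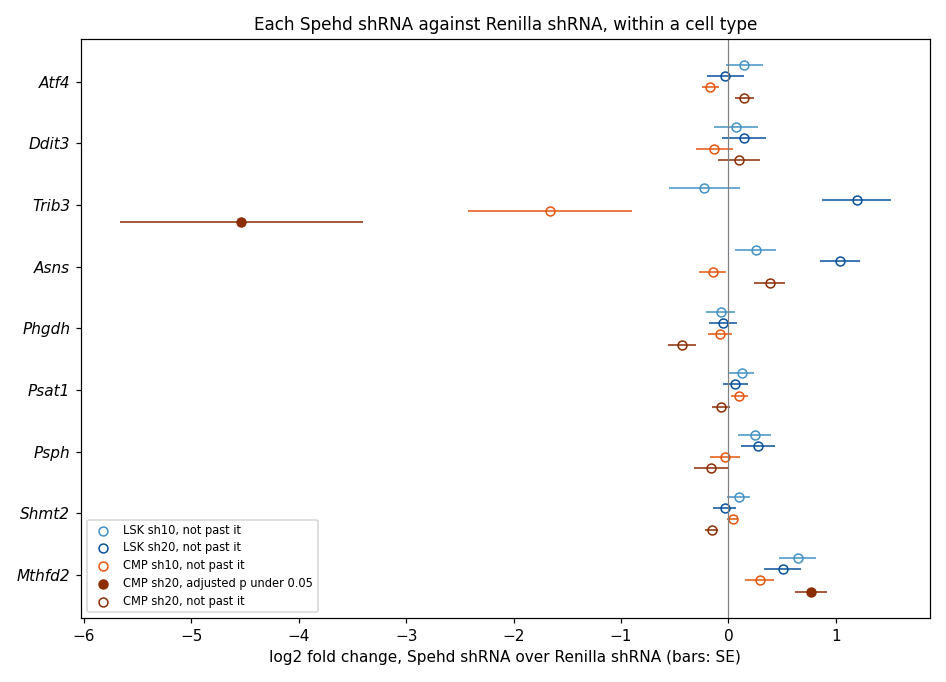
Log2 fold change of each *Spehd* shRNA over *Renilla* shRNA within LSK cells and within CMPs, for the 9 genes tested there (bars are SE; filled symbols have an edgeR adjusted p under 0.05). *Mthfd2* lies from 0.29 to 0.77 in all 4 comparisons, and *Trib3* with sh20 lies at 1.19 in LSK and at -4.54 in CMPs.

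In CMPs with sh20 the *Mthfd2* difference was 0.77 (SE 0.15, edgeR adjusted p = 0.0202), a 1.70-fold higher level. With the replicate letters as a block it was 0.77 with adjusted p = 0.154, and with log2 total counts as a covariate 0.85 with adjusted p = 0.288. For *Trib3*, sh20 CMP libraries held 1 and 1 counts, sh10 libraries 11, 7 and 3, and control libraries 6, 12, 15 and 43. Both sh20 libraries were below every other CMP library, and the share of all genes separated so was not counted. The summed ratio of sh20 to control was 0.0370 after scaling (exact 95% interval from counting 0.0044 to 0.138) and that of sh10 to control 0.310 (0.182 to 0.508). CMP *Renilla* D held 43 of the 76 control counts, and without it the ratios were 0.0638 (0.0074 to 0.250) and 0.535 (0.294 to 0.953).

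The fitted *Trib3* value with sh20 was -4.54 (SE 1.1, edgeR adjusted p = 0.0470). The call was lost without any 1 of CMP sh20 B or C or CMP *Renilla* B, C or D (adjusted p 0.0591 to 0.112), and the value without CMP *Renilla* D was -3.74. It was also lost with the replicate block (-3.72, adjusted p = 0.183) and with total counts as a covariate (-4.58, adjusted p = 0.215). *Trib3* passed the filter in CMPs through 3 control libraries and CMP sh10 A.

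In LSK cells *Trib3* had higher values with sh20. The 3 libraries held 129, 111 and 194 counts (25.4, 23.9 and 35.6 CPM), against 7.40, 15.1 and 8.49 CPM with sh10 and 9.27 to 16.0 CPM with *Renilla* shRNA. The sh20 libraries were above all other LSK libraries, and the share of all genes separated so was not counted. The fitted difference from the controls was 1.19 (SE 0.32, edgeR adjusted p = 0.295, DESeq2 adjusted p = 0.0364), and the summed ratio was 2.32 (exact 95% interval from counting 1.97 to 2.74). In the same contrast all 6 mature neutrophil markers tested had lower values with sh20 (median -3.95, 0 called by edgeR and 4 with an unadjusted p under 0.05), and the part of such cells in it was not tested.

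*Asns* was also highest with sh20 in LSK cells. It was 54.8, 71.6 and 75.1 CPM with sh20, 39.0, 43.8 and 31.8 CPM with sh10, and 27.9 to 35.2 CPM with *Renilla* shRNA. The sh20 libraries did not overlap those of either other group, again without a count of how many of all genes did the same. The difference from the controls was 1.04 (SE 0.19), with an unadjusted p that ranked 15 of 13828 genes and an edgeR adjusted p = 0.162. It passed with no filter on low counts (adjusted p = 0.0441), with DESeq2 (1.48e-04) and in the fit of all 19 libraries (0.00666). With total counts added to that last fit as a covariate it also passed (0.0200). It did not pass with the replicate block (1.08, adjusted p = 0.691) or in the 7 fits without 1 library (adjusted p 0.149 to 0.411). In this contrast all 9 erythroid and megakaryocyte markers and all 6 macrophage markers also had higher values (medians 0.42 and 0.43, with 0 called by edgeR and 1 and 0 with an unadjusted p under 0.05). The summed erythroid and megakaryocyte markers were 1023 to 1139 CPM with sh20, above the 731 to 999.97 CPM of the controls. Of 11 stem and multipotent markers 5 had higher and 6 lower values, with 0 called by edgeR and 4 with an unadjusted p under 0.05. These markers summed to 2831 to 2937 CPM with sh20, under the 2960 to 3397 CPM of the controls. The part of these cell types in the *Asns* and *Trib3* values was not tested.

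In CMPs *Asns* was 269 and 231 CPM with sh20, above the 171 to 222 CPM of the controls and the 147 to 194 CPM of sh10. The difference from the controls was 0.38 (SE 0.14, edgeR adjusted p = 0.133). *Phgdh* and *Shmt2* had lower values there with sh20. *Phgdh* was 49.5 and 54.1 CPM, under the 62.9 to 75.8 CPM of all other CMP libraries (-0.43, SE 0.13, adjusted p = 0.0754, and 0.0364 with DESeq2), and *Shmt2* was 257 and 264 CPM, under the 285 to 315 CPM of all other CMP libraries (-0.16, SE 0.06, adjusted p = 0.130). The fit of all 19 libraries gave -0.45 for *Phgdh* (edgeR adjusted p = 0.0566) and -0.17 for *Shmt2* (0.301). With total counts added to that fit as a covariate the values were -0.17 (adjusted p = 0.808) and -0.0072 (adjusted p = 0.993). The *Asns* difference lay from 0.37 to 0.62 over the 7 settings that kept every library and passed in 0 of them. How many of all genes had both sh20 libraries outside all other CMP libraries was not counted.

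The shRNAs were compared directly, without the controls. Of the 9 genes, 0 were called between sh20 and sh10 in CMPs by edgeR, 6 had an unadjusted p under 0.05 and DESeq2 called 3, where edgeR called 6.41% of all genes and DESeq2 13.2%. The largest by rank was *Asns*, at 0.53 higher with sh20 (SE 0.15, edgeR adjusted p = 0.0619), followed by *Atf4* at 0.32 (SE 0.10, adjusted p = 0.0738). *Mthfd2* was at 0.48 (SE 0.16), *Shmt2* at -0.20 (SE 0.06), *Phgdh* at -0.35 (SE 0.13) and *Trib3* at -2.88 (SE 1.1), and *Ddit3*, *Psat1* and *Psph* lay from -0.17 to 0.23. *Atf4* measured 150 and 145 CPM with sh20 and 127, 113 and 118 CPM with sh10, with no overlap. In LSK cells 0 of 9 were called by edgeR, 2 had an unadjusted p under 0.05 and DESeq2 called 2, where edgeR called 0% of all genes and DESeq2 1.47%. These were *Trib3* (1.42, SE 0.35, edgeR adjusted p = 0.202) and *Asns* (0.78, SE 0.20, adjusted p = 0.216), and the other 7 genes lay from -0.18 to 0.07.

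The effect of knockdown in CMPs minus that in LSK cells, averaged over the shRNAs, called 0 of the 10 genes (edgeR; 2 with an unadjusted p under 0.05, and 1 by DESeq2), where edgeR called 0.0531% of all genes and DESeq2 0.624%. *Trib3* ranked 19 of 15066 by p, with a difference of -3.60 (SE 0.71, adjusted p = 0.0738), and *Asns* had -0.54 (SE 0.19, adjusted p = 0.377). *Chac1* was at -1.04 (SE 2.0), *Psph* at -0.36 (SE 0.17) and *Phgdh* at -0.21 (SE 0.13), and the other 5 genes lay from -0.13 to -0.06. All 10 fitted values were thus below 0 in the main fit, and the median over all genes was -0.04. Those of *Atf4*, *Chac1* and *Mthfd2* changed sign in some setting, and the share of all genes below 0 was not counted. Taken for sh20 alone, the *Trib3* difference was -5.77 (SE 1.0, edgeR adjusted p = 0.0136), 1 of 88 genes called. In edgeR fits chosen after seeing the data, the sign of this difference stayed, and the call was lost without CMP sh20 replicate B (adjusted p = 0.0648) and with total counts as a covariate (adjusted p = 0.0749).

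**Figure D4:**
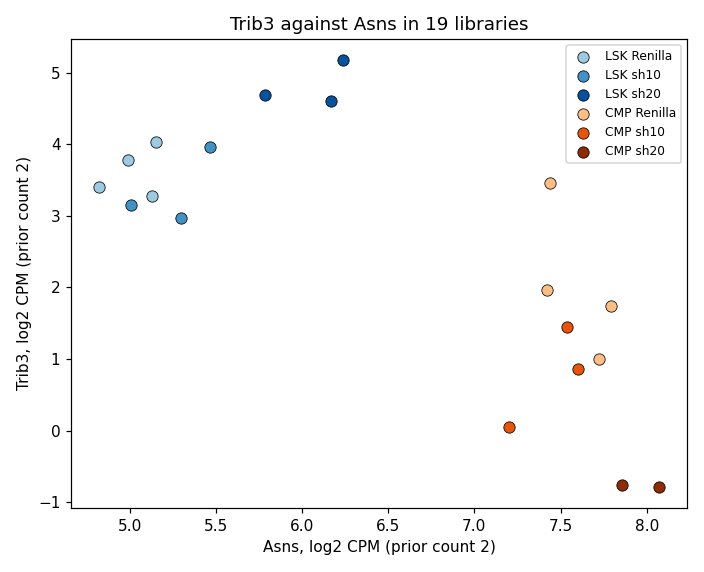
*Trib3* against *Asns* in the 19 libraries, both as log2 CPM with a prior count of 2; each point is 1 library, coloured by group. In LSK cells the 3 sh20 libraries have the highest values of both genes, and in CMPs the pair of sh20 libraries has the highest *Asns* and the lowest *Trib3*.

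In the plot of *Trib3* against *Asns* the populations formed separate clusters, so no pooled relation is given. The pattern most like each gene was taken as the highest Pearson r of log2 CPM over the 19 libraries over the 10476 genes whose counts averaged 50 or more. Such values are a description, since the libraries share cell types and groups. For *Asns* these were *Tnfaip2* (r = 0.97) and *Cited4* (0.97). The r values were 0.33 and 0.29 within the 9 CMP libraries and 0.90 and 0.79 within the LSK libraries. For *Mthfd2* they were *Yars*, the tyrosyl-tRNA synthetase (0.91 in all, 0.88 within CMPs and 0.80 within LSK cells), and *Armc6* (0.90). For *Atf4* they were *Mrpl15* (0.91) and *Coq7* (0.88), and for *Ddit3* *Leprot* and *Col5a1* (both 0.91). *Phgdh* was most like *H2afy* (0.92) and *Akt1* (0.91), *Shmt2* most like *Nup62* (0.92) and *Ruvbl2* (0.91), *Psat1* most like *Trim27* (0.81) and *Nrf1* (0.80), and *Psph* most like *Gm45051* (0.78) and *Nmral1* (0.77).

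Other genes of the same pathways were counted from lists drawn up by function. Between control CMPs and control LSK cells, 10 of 20 cytosolic aminoacyl-tRNA synthetases were higher in CMPs and 0 lower, and all 20 fitted values were above 0, with a median of 0.32 against -0.02 over all genes. *Hars* (0.67, SE 0.09), *Gars* (0.53, SE 0.07) and *Aars* (0.47, SE 0.10), which charge the histidine, glycine and alanine tRNAs, led by size. With sh10 the count was 14 higher (median 0.47, background 16.1%), from 8 without CMP sh10 B to 18 without LSK sh10 B, and with sh20 it was 5 higher (median 0.22, background 14.6%), down to 2 without CMP sh20 C. Of 13 mitochondrial chaperones and proteases 8 were higher in control CMPs (median 0.42, where 19.8% of all genes were called), among them *Hspe1* (0.90, SE 0.14) and the protease *Lonp1* (0.48, SE 0.12). With sh10 7 were higher (median 0.45, background 16.1%; 4 without CMP sh10 A or B), and with sh20 1 was higher and 1 lower (median 0.28, background 14.6%; 0 called without CMP sh20 B).

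The eIF2 pathway had 7 of 15 genes higher in control CMPs and 0 lower (median 0.31, background 19.8%). They included 4 subunits of the exchange factor eIF2B, with *Eif2b3* at 0.96 (SE 0.14), *Ppp1r15b*, which directs eIF2 dephosphorylation (0.68, SE 0.15), and the heme-regulated kinase gene *Eif2ak1* (0.30, SE 0.07). Of 24 folate and one-carbon genes tested, 7 were higher and 2 lower (median 0.16), a total of 9 that became 5 without CMP *Renilla* A. The cytosolic counterpart *Mthfd1* was higher (0.88, SE 0.11), with 458 ± 62.3 CPM in control CMPs and 248 ± 10.3 CPM in control LSK cells (SD, n = 4 each), while cytosolic *Shmt1* was lower (-0.43, SE 0.13).

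The other known ATF4 targets did not follow 1 direction, and 4 of 17 were called against 19.8% of all genes. Of the 17, 2 were higher in control CMPs (*Aldh18a1*, proline synthesis, 0.64, SE 0.08; *Eif4ebp1*, a translation repressor, 0.59, SE 0.11) and 2 lower (*Vldlr*, a lipoprotein receptor, -1.94, SE 0.28; *Cebpb*, a bZIP partner, -0.69, SE 0.18), with a median of -0.0042 against -0.02 over all genes. Of 10 amino acid transporters 1 was higher (*Slc43a1*, 0.90, SE 0.16), and the count called became 2 without CMP *Renilla* B or LSK *Renilla* C. Of 22 endoplasmic reticulum stress genes 1 was higher (*Dnajb11*, 0.43, SE 0.10) and 1 lower (*Ern1*, -1.09, SE 0.26). The shares called in both of these lists were below that background.

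**Figure D5:**
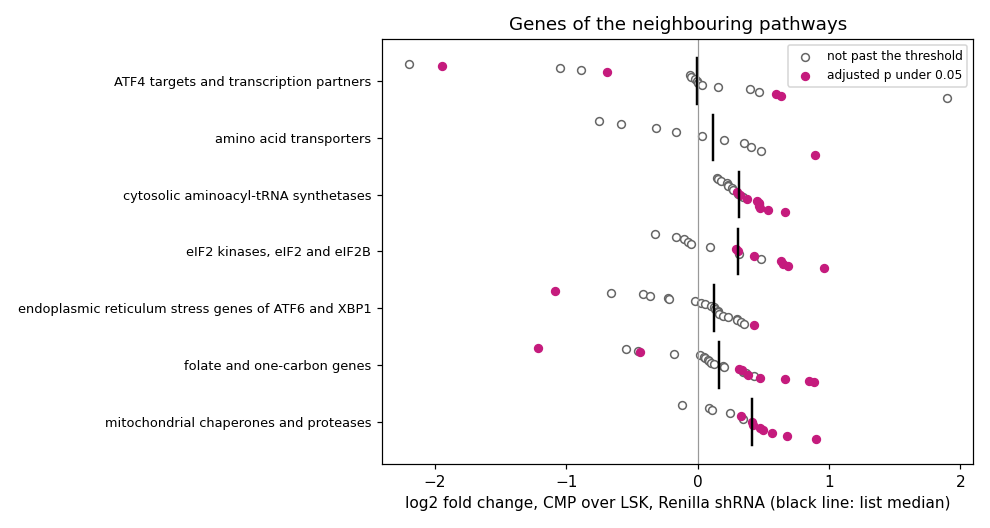
Log2 fold change of CMP over LSK with *Renilla* shRNA for the genes of 7 pathway lists (each point 1 gene, filled where the edgeR adjusted p is under 0.05, black line the list median). The 20 tRNA synthetases all lie above 0, with 10 called, while the ATF4 targets spread to both sides.

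With the pooled *Spehd* shRNAs, 0 genes of these 7 lists were called in either population (edgeR). Of all genes, 0.116% were called in CMPs and 0% in LSK cells. The lists were not counted in the alternatives to this contrast, of which DESeq2 called 882 genes in CMPs. With sh20 in CMPs, where 6.17% of all genes were called, *Vldlr* was lower (-4.49, SE 0.46, edgeR adjusted p = 0.00549), at 1.04 ± 0.03 CPM (SD, n = 2) against 24.0 ± 8.23 CPM (n = 4) in the controls. With the replicate block no gene of any kind was called in this contrast (0 of 13824), and *Vldlr* had an edgeR adjusted p of 0.0905. That fit left few residual degrees of freedom, so calls lost with it may reflect lower power. Its call stood without each single library and with total counts as a covariate, under which the calls of the other list genes named next were lost. The eIF2 phosphatase subunit gene *Ppp1r15a* was lower with sh20 (-0.65, SE 0.14) and with sh10 (-0.61, SE 0.12), and the glutamine transporter gene *Slc38a1* was higher with both (0.37, SE 0.09, and 0.42, SE 0.08). Both sh10 calls were lost in 6 of the 7 fits that left out 1 library, and the sh20 calls of *Ppp1r15a* in 3 of 6 and of *Slc38a1* in 4 of 6. Of the endoplasmic reticulum stress list sh20 gave 2 higher (*Hyou1*, 1.41, and *Pdia4*, 0.43) and 3 lower (*Calr*, -0.38, *Hspa5*, -0.36, and *Pdia3*, -0.35) in CMPs. Of these, *Calr* and *Hspa5* stood without each single library, *Pdia3* was lost without CMP sh20 B, *Pdia4* in 3 of 6 such fits and *Hyou1* in 4 of 6. With the covariate *Calr*, *Hspa5* and *Pdia3* were at -0.09, -0.06 and -0.03, and *Slc38a1* with sh20 was at 0.0034. Of the other lists, sh20 in CMPs gave the valyl-tRNA synthetase gene *Vars* lower (-0.26, called without each single library, and -0.07 with the covariate) and the arginyl-tRNA synthetase gene *Rars* higher (0.38). The chaperone genes *Hspd1* (-0.36) and *Hspa9* (-0.22) and the translation repressor gene *Eif4ebp1* (-0.39) were lower. The calls of *Rars*, *Hspd1*, *Hspa9* and *Eif4ebp1* were lost in 4 to 6 of the 6 fits without 1 library. *Mthfd1l*, a mitochondrial formate-producing enzyme, was higher with sh10 in CMPs (0.36, SE 0.06, background 1.97%), a call lost without any 1 of 6 of the 7 libraries and with the replicate block (edgeR adjusted p = 0.152).

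Markers of other cells were called in some of these contrasts. In CMPs with sh20, where 6.17% of all genes were called, 2 of 9 erythroid and megakaryocyte markers were higher and 2 lower, 1 of 11 stem markers was lower and 1 of 6 macrophage markers was higher. In CMPs with sh10, where 1.97% of all genes were called, 2 of 4 lymphoid and 1 of 11 stem markers were lower and 1 of 8 granulocyte and monocyte progenitor markers was higher. The sum of that last list was 973 to 1212 CPM with sh10 and 524 to 783 CPM in control CMPs, with no overlap. The summed macrophage markers were 197 to 320 CPM with sh20, 85.6 to 102 CPM with sh10 and 47.9 to 217 CPM with *Renilla* shRNA in CMPs, and 246 to 358 CPM in control LSK cells. The summed erythroid and megakaryocyte markers were 2169 to 2491 CPM in control CMPs, 1983 to 2041 CPM with sh10 and 2329 to 2408 CPM with sh20, against 731 to 999.97 CPM in control LSK cells, and none of the markers of either list was at 0 in a whole group. Mature neutrophil markers summed to 1.95 to 11.8 CPM in CMPs and in LSK cells to 6.25 to 12.0 CPM with sh20, 46.0 to 275 CPM with sh10 and 4.44 to 290 CPM with *Renilla* shRNA. The part of these cell types in the results above was not tested.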

How the data were processed

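RNA from sorted LSK cells and CMPs was made into SMART-Seq v4 libraries. STAR alignment to mm10, Picard duplicate removal and HTSeq counting on a GENCODE annotation were done by the authors with default parameters. The 19 deposited tables hold whole read counts per gene, not normalized. Reads that HTSeq assigned to no feature made up 51.9 to 53.8% of uniquely placed reads and stayed out of library sizes. A normalized table deposited with the series was not used. Counts were compared with edgeR 4.0.16 in R 4.3.3 (TMM, filterByExpr at min.count 10 and min.total.count 15, quasi-likelihood test, Benjamini-Hochberg adjustment over all genes, threshold 0.05). The shRNAs were pooled or taken apart within each cell type, and all 6 groups were fitted together for CMP against LSK and for differences in effect. Standard errors are the fold change divided by the square root of F. Alternatives were DESeq2 1.42.0, its size factors in edgeR, no filter, a block for replicate letters and 1 fit of all 19 libraries. Others were that fit with log2 total counts as a covariate, separate groups for the shRNAs, and leaving out each library. The covariate was never fitted within 1 cell type alone, and its slope was shared by both populations. Within 1 cell type the block left few residual degrees of freedom, so a call lost with it may reflect lower power. All 10 genes were followed in every comparison. Of each list and comparison at most 4 genes past the threshold were named, not always the largest by size. *Pdia3* was added after its values were seen. The 10 genes, the lists and the alternatives were chosen with earlier results of these data known. Annotation was GENCODE vM21 on GRCm38, and promoters were RefSeq's. Figures used Python 3.11.15 and matplotlib 3.10.9. A gene of the folate and one-carbon list is counted but not reported by name here.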

Additional observations from a re-analysis of the deposited data

Results flagged for a closer look

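For *Trib3* and *Psph*, every sh20 library lay on one side of the control mean in CMPs and on the other side in LSK cells. The mean change of *Trib3* from *Renilla* to sh20 was -2.81 log2 CPM in CMPs and 1.20 in LSK cells, a difference of -4.01, with every sh20 library below the control mean in CMPs and above it in LSK cells. The fitted difference was -5.77 (SE 1.0, edgeR adjusted p = 0.0136), and its call was lost without CMP sh20 replicate B (adjusted p = 0.0648). For *Psph* the mean changes were -0.17 and 0.29 log2 CPM, a difference of -0.46, and the fitted difference of -0.47 (SE 0.22) did not pass the test (edgeR adjusted p = 0.348). In the groups of 4 libraries, the only ones large enough to be examined for a single library far from the rest, no library passed Dixon's 95% limit on log2 CPM for the 10 genes, CMP *Renilla* D in *Trib3* (10.6 CPM against 1.58 to 3.48 CPM) included.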

How the results depend on the processing

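Of 70 counts of called genes of the 10 under settings that kept every library, 55 were within 1.5 times the main count. With pooled shRNAs in CMPs the count of 0 became 1 with DESeq2, 2 with separate groups and 2 with all 19 libraries in 1 fit. For sh20 in CMPs the count of 2 became 0 with the replicate block and 0 with total counts as a covariate, and lay from 1 to 2 with 1 library left out. For sh20 in LSK cells the 0 became 1 with no filter, 2 with DESeq2, 1 with the covariate and 1 with all 19 libraries. Between sh20 and sh10 the 0 in CMPs became 1 with no filter and 3 with DESeq2, and lay from 0 to 1 with a library left out, and the 0 in LSK cells became 2 with DESeq2. For CMP against LSK the count with *Renilla* shRNA of 5 became 3 with no filter and 2 to 5 with a library left out, that with sh10 of 2 became 2 to 4 (4 without LSK sh10 B), and that with sh20 of 5 became 3 to 4. For the difference in effect the 0 became 1 with no filter, 1 with DESeq2 and 0 to 1 with a library left out. The causes were not tested. No source says that letters pair libraries; within a cell type, deviations from the group means correlated from -0.175 to 0.156 between same-letter libraries, and between CMP and LSK libraries of the same shRNA and letter from 0.0031 to 0.26 over 9 pairs, all positive (median 0.04, against -0.03 for other letters). Since no pairing is stated, the letters were not taken as pairs in the main fits. If CMP and LSK libraries of 1 letter shared a mouse, the tests of CMP against LSK ignored that pairing. Of the counts for the pathway lists, 48 moved by over 1.5 times and 141 did not under settings that kept every library. Of the 112 fold changes of the 10 genes, the 40 with an unadjusted p under 0.05 or a call in any setting kept their sign throughout. Of the other 72, 37 changed sign in some setting; outside *Chac1* their main values were at most 0.15 from 0 on the log2 scale. The sh20 difference in *Trib3* between the populations, examined under alternatives chosen after seeing the data, lay from -6.05 to -4.99 with each library left out (edgeR adjusted p from 0.00755 to 0.0648) and was -5.61 with the replicate block (adjusted p = 0.0184) and -5.79 with the covariate (adjusted p = 0.0749). Counts of a few reads limit *Trib3* in CMPs and *Chac1* throughout.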
